A study of Mus musculus with 12 samples.

Results

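The semaphorins, plexins, neuropilins, Eph receptors and ephrins are the ligands and receptors that repel, sort and confine migrating neural crest cells, growing axons and vessels. They were taken as every row of the count table whose symbol belongs to class 3 to 7 semaphorins, plexins, neuropilins, Eph receptors or ephrins. Rows were matched by this rule on names and not by level or response. The set itself was chosen with earlier results of these data known. The rule found 53 of 24421 gene rows, namely 20 semaphorin genes, 2 neuropilins, 9 plexins, 9 EphA and 5 EphB receptors, 5 ephrin-A and 3 ephrin-B genes. Of these, 51 passed the filter on low counts and were tested among 14810 genes. The 2 that did not pass were Epha6, with 0 to 11 counts per library, and Plxnb3, with 0 to 4.

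RNA was sequenced from C57Bl/6 mouse embryos with an alteration, specific to neural crest cells, of Eftud2, which encodes a spliceosomal GTPase. The design crossed genotype, heterozygous (Eftud2+/-, the control) or homozygous mutant (Eftud2-/-), with stage, embryonic day 9.0 (E9.0) or E9.5, in 4 groups of 3 libraries. All 12 libraries therefore carried at least 1 altered allele, and no wild-type library was compared. The labels give the source as neural crest cells and the tissue as cranial nerve ganglia, while the protocol stores heads; they name neither the Cre driver nor the number of embryos in a library.

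Semaphorins are secreted or membrane-bound cues whose main receptors are plexins. Class 3 semaphorins are secreted and most of them bind a neuropilin, which holds the ligand while the plexin partner signals into the cell. Eph receptors are receptor tyrosine kinases that bind ephrins on the neighbouring cell: EphA receptors mostly bind the lipid-anchored ephrin-A ligands, EphB receptors mostly the transmembrane ephrin-B ligands, and signals pass into both cells. In the embryonic head these systems are known for keeping the crest streams that leave the hindbrain apart, for sharpening rhombomere borders, for guiding the first cranial axons and for patterning vessels.

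The libraries held 13914543 to 31172708 counts, and the 53 genes together took 0.170% to 0.271% of them. Levels are given as CPM, the count of a gene scaled to a common library size that was itself adjusted by TMM, which corrects for a few very abundant RNAs. The scaling was largest in heterozygous E9.0 replicate 1, in which the ribosomal RNA precursor Rn45s took 37.4% of the counts. The TMM factor of that library was 0.664, against 0.924 to 1.11 in the other 11 libraries. Both measures also divided by stage. Rn45s took 6.05% to 37.4% of the counts at E9.0 and 4.40% to 5.90% at E9.5. TMM factors were 0.664 to 1.05 at E9.0 and 1.09 to 1.11 at E9.5. Rn45s content and scaling thus cannot be told apart from stage. Eftud2 itself measured 275 to 302 CPM in heterozygous and 232 to 236 CPM in homozygous libraries at E9.0, and 248 to 264 against 221 to 226 CPM at E9.5, so its RNA was lower in homozygous libraries but far from absent. Tests were edgeR's quasi-likelihood test with Benjamini-Hochberg adjustment over all 14810 genes and a threshold of 0.05. The labels do not say that the libraries came from separate litters, so p-values measure only the spread between these libraries. Sex also differed between libraries and was not in the fit. Xist and Y-linked genes were both high in some, such as heterozygous E9.0 replicate 2 (280 and 110 CPM), which thus held both sexes. In heterozygous E9.0 replicate 1 they measured 0.220 and 164 CPM, and in homozygous E9.0 replicate 3 453 and 0.0675 CPM.

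Levels of different genes can be compared only per length, so each mean over the 12 libraries was divided by the summed exon length. On this scale of CPM per kilobase, the EphB receptor Ephb4 and the plexin Plxnb2 stood highest, at 25.0 and 24.3, and the ephrin-B ligands followed closely, with Efnb2 at 23.1, Efnb1 at 23.0 and Efnb3 at 19.6. Plxna1, a co-receptor for class 3 semaphorins, measured 19.1 CPM per kilobase. Among the remaining receptors Epha4 was at 14.5, Plxnd1 at 12.9, Nrp2 at 12.2 and Nrp1 at 6.32 CPM per kilobase. Class 3 semaphorins ran from 0.865 CPM per kilobase for Sema3e to 6.93 for Sema3f. Epha10 at 0.130 and Epha5 at 0.125 CPM per kilobase were the lowest genes that were tested.

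**Figure D1:**
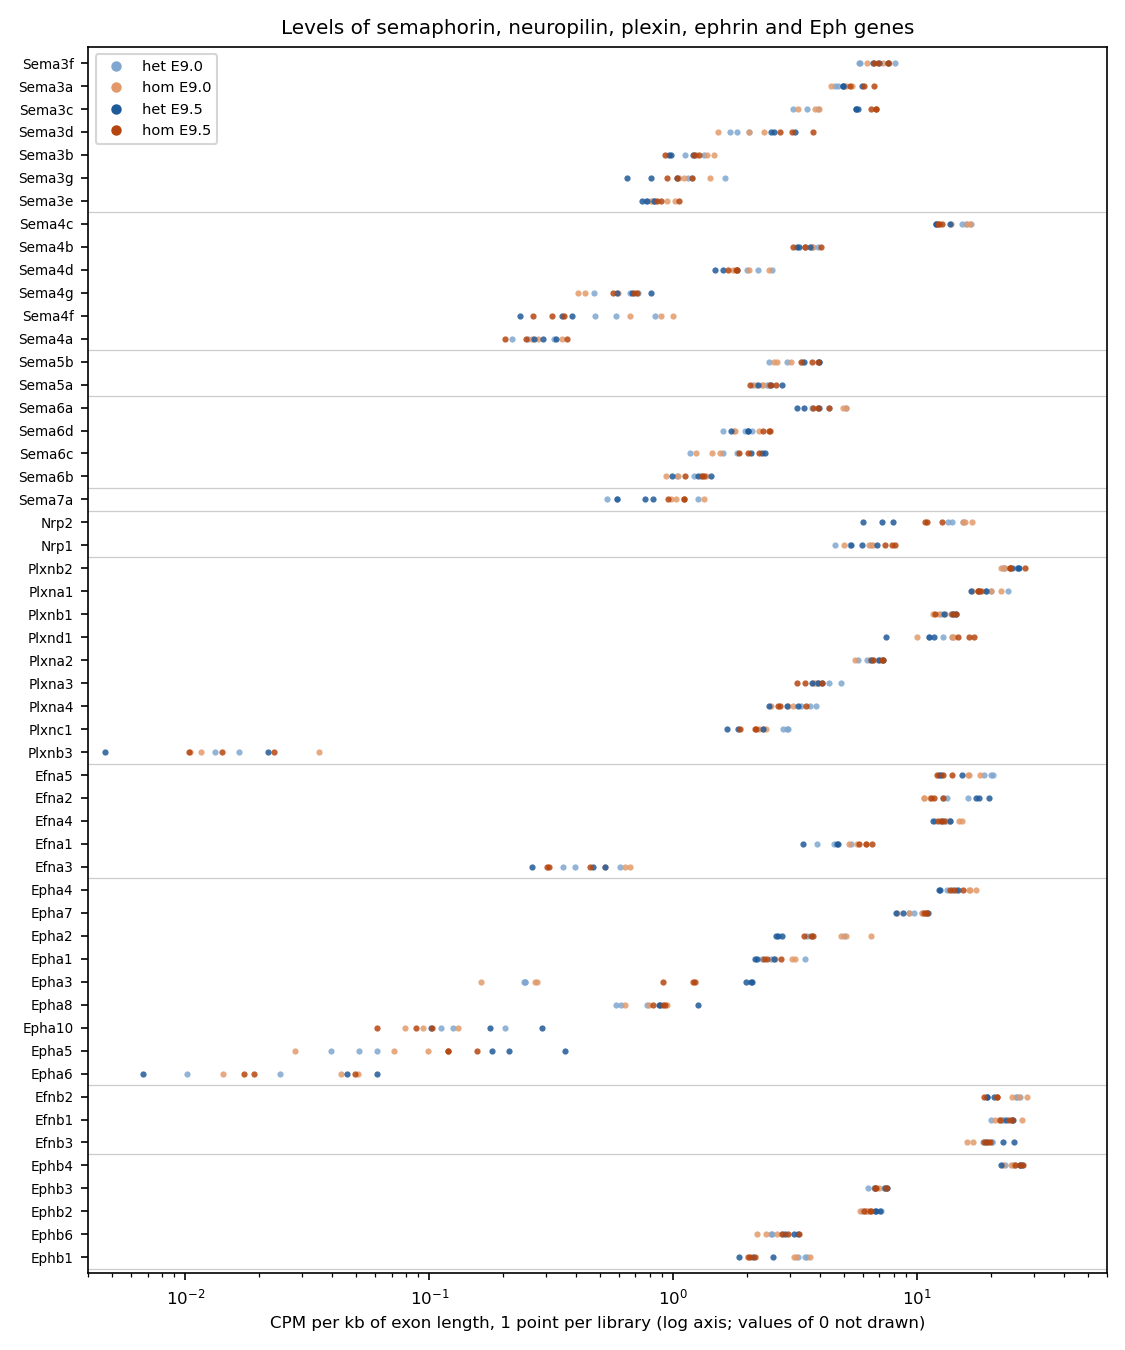
Level of each of the 53 guidance genes in CPM per kilobase of exon on a log axis, ordered by family, with 1 point per library coloured by genotype and stage and values of 0 not drawn. Ephb4 and Plxnb2 stand highest, at means of 25.0 and 24.3 CPM per kilobase, and the untested Epha6 and Plxnb3 lowest, at 0.0286 and 0.0134.

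The genotype comparison asks which of these cues and receptors differ between homozygous and heterozygous embryos. At E9.5, 1 gene rose and 2 fell in homozygous libraries: Nrp2, the neuropilin for Sema3f-type ligands, was 1.62-fold higher, while the ligand Efna2 (ephrin-A2) was at 0.651 and the receptor Epha3 at 0.541 of the heterozygous level. These 3 of 51 tested genes are 5.88%, beside 1.89% of all genes tested (280 of 14810; 1.19% upward and 0.702% downward). Before adjustment, 15 of the 51 had a p under 0.05. The median log2 difference over the 51 was 0.00, beside 0.00 over all genes tested. In tissue RNA, fewer cells of a type and less RNA per cell cannot be told apart.

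The stretches of DNA just before the transcription starts of these 3 genes are shown because they are the genes called at the later stage; they come from the RefSeq promoter table (build GRCm38.p6), run 5′ to 3′ on the gene's strand, and have GC boxes (GGGCGG on either strand) in capitals.
Nrp2, chr1:62703067-62703284, plus strand: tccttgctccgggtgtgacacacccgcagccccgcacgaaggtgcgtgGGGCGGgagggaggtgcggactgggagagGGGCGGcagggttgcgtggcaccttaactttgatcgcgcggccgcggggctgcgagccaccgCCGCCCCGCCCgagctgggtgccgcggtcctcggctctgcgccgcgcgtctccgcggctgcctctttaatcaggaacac
Efna2, chr10:80179232-80179481, plus strand: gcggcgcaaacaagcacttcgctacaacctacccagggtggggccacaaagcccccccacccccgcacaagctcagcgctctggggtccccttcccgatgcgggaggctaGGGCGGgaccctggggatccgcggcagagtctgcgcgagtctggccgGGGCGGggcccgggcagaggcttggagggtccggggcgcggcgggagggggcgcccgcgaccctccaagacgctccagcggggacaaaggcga
Epha3, chr16:63864176-63864425, minus strand: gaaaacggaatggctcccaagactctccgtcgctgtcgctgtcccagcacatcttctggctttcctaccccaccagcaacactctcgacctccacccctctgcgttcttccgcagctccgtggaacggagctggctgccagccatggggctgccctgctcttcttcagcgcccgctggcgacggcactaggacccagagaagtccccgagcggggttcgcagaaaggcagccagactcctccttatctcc
Motifs were counted over the 250 bases before the RefSeq start. Nrp2 had 5 GC boxes there, of which the 4 in the stretch above lie before its first GENCODE exon and the pair in the longest run of capitals share a base. Efna2 had 2 GC boxes and Epha3 had 0; 32.7% of 32851 RefSeq mouse promoters of this length hold at least 1. The CG dinucleotide, which GC boxes contain, occurred 32 times for Nrp2, 25 times for Efna2 and 16 times for Epha3, against a median of 6 over all promoters. Neither TATAAA, found in 12.4% of all promoters, nor the E-box CANNTG, found in 66.2%, nor a p53 half-site, found in 7.13%, was matched on either strand in these 3 windows.

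Both neuropilins and the plexin Plxnd1 had E9.5 homozygous values above all heterozygous ones. Nrp2 measured 94.7, 71.0 and 84.7 CPM in heterozygous E9.5 libraries, and 149.9, 129.6 and 127 CPM in homozygous ones. The lowest homozygous library lay well above the highest heterozygous one, and the difference was 0.70 ± 0.09 (log2, SE) with an adjusted p of 0.00115 by edgeR. Nrp1, the neuropilin that binds Sema3a and also VEGF, measured 66.9, 52.3 and 57.9 CPM against 79.6, 72.2 and 77.2 CPM. Its groups did not overlap either, but its log2 difference of 0.37 ± 0.12 had an adjusted p of 0.189 by edgeR (95% interval 0.10 to 0.64). Plxnd1, the receptor of Sema3e on vessels, measured 82.0, 54.4 and 85.5 CPM against 125, 108 and 119 CPM. Its groups were also apart, at a log2 difference of 0.67 ± 0.18 with an adjusted p of 0.115; heterozygous replicate 2 was far below its 2 companions, and without it the difference was 0.49 (adjusted p = 0.123).

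The class A plexins, which pair with neuropilins, showed no such separation. Plxna1 averaged 162 ± 11.6 CPM (SD, n = 3) in heterozygous and 163 ± 2.31 CPM in homozygous E9.5 libraries, with an edgeR adjusted p of 0.993. Plxna2 averaged 119 ± 6.62 against 120.2 ± 6.45 CPM, with an adjusted p of 0.962. For Plxna3 the means were 30.7 ± 1.41 and 28.3 ± 3.45 CPM (adjusted p = 0.672), and for Plxna4 they were 40.6 ± 5.37 and 41.9 ± 6.45 CPM (adjusted p = 0.930). All 4 pairs of means lay within the spread between libraries. Of the 8 plexins tested, only Plxnd1 had groups that did not overlap at this stage, and 0 were called.

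No semaphorin passed the threshold at E9.5, in any of the 5 classes. Sema3c, a ligand that guides crest cells to the outflow tract of the heart, measured 40.2, 40.7 and 40.2 CPM in heterozygous and 46.2, 48.2 and 48.4 CPM in homozygous libraries. The groups were tight and apart, and the edgeR adjusted p was 0.185. Sema3a, the classical repellent of sensory axons and crest cells, averaged 73.3 ± 7.56 and 83.3 ± 9.15 CPM (adjusted p = 0.390). Sema3f, the best known Nrp2 ligand, averaged 36.6 ± 2.60 and 36.6 ± 2.53 CPM (adjusted p = 0.998). For Sema3d the means were 23.6 ± 3.05 and 27.3 ± 4.38 CPM (adjusted p = 0.593) and for Sema3g, another ligand that binds Nrp2, 3.77 ± 0.880 and 4.81 ± 0.585 CPM (adjusted p = 0.433). Of the other semaphorins, Sema3e, Sema6d and Sema7a had homozygous E9.5 values above all heterozygous ones; Sema6d, a transmembrane ligand of Plxna1, averaged 20.3 ± 1.87 and 25.7 ± 0.939 CPM with an adjusted p of 0.138. Among the class 4 and class 5 semaphorins, 8 genes in all, the log2 differences ran from -0.14 to 0.11 and no adjusted p was under 0.789.

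**Figure D2:**
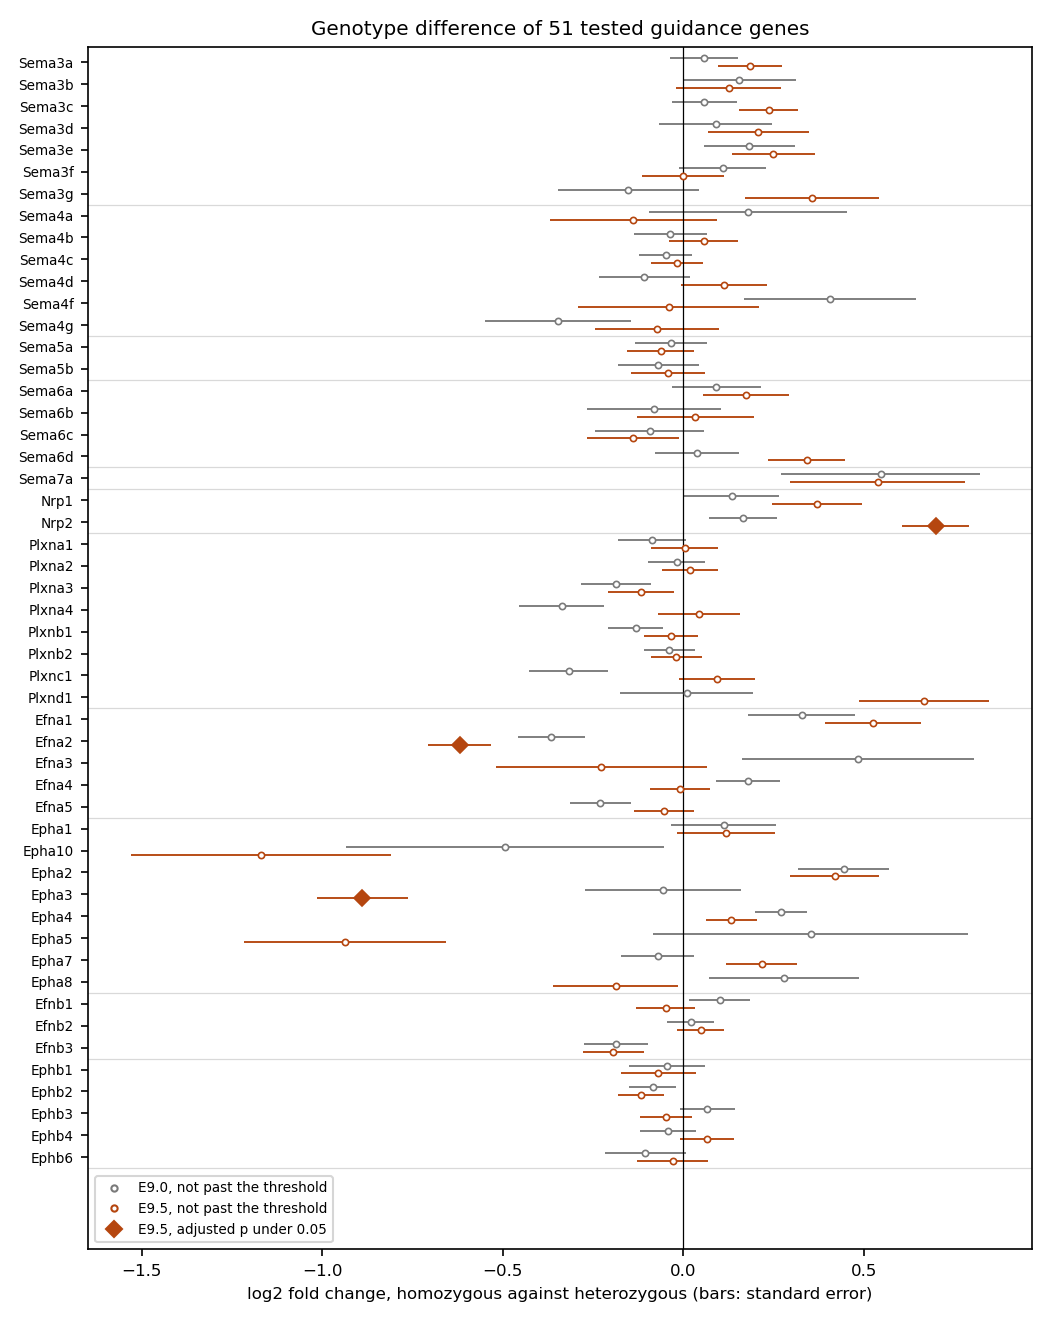
Log2 fold change of homozygous against heterozygous libraries for each tested guidance gene at both stages, with standard errors as bars and called genes as diamonds. At E9.5 the called genes are Nrp2 at 0.70, Efna2 at -0.62 and Epha3 at -0.89, and at E9.0 there is none.

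On the ephrin side, the A class carried the calls. Efna2, a lipid-anchored ligand of EphA receptors, measured 37.3, 41.9 and 38.2 CPM in heterozygous and 27.2, 24.9 and 24.3 CPM in homozygous E9.5 libraries. The groups were wide apart, and Efna2 fell by 0.62 ± 0.09 (log2), with an adjusted p of 0.00126 by edgeR. Its EphA partner Epha3 measured 18.1, 17.3 and 18.3 CPM against 10.5, 7.89 and 10.7 CPM. It fell by 0.89 ± 0.13 on the log2 scale, with an adjusted p of 0.00143 and no overlap of groups. Epha3 has no overlapping exon of another gene in the GENCODE M21 annotation, and neither have Nrp2 and Efna2.

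2 other A class genes had groups apart in the opposite direction at E9.5 without passing the threshold. Efna1, a ligand of Epha2 made by vessels and epithelia, measured 8.69, 6.22 and 8.60 CPM in heterozygous and 11.9, 10.6 and 11.3 CPM in homozygous libraries (0.53 ± 0.13 on the log2 scale; edgeR adjusted p = 0.0571). Epha2, an epithelial receptor, measured 12.6, 13.0 and 12.3 CPM against 16.1, 17.1 and 17.5 CPM (0.42 ± 0.12; adjusted p = 0.108). Both genes were higher in every homozygous library than in any heterozygous one. Epha4, a receptor known from rhombomeres 3 and 5, measured 99.6, 118 and 99.1 CPM against 110.0, 124 and 114 CPM, and these groups overlapped (0.13 on the log2 scale; adjusted p = 0.456). Epha7 averaged 92.2 ± 14.9 and 107 ± 1.41 CPM (adjusted p = 0.348), and the ligand Efna5 53.9 ± 6.84 and 52.0 ± 3.74 CPM (adjusted p = 0.874). Epha5, an axonal receptor, was low throughout, at 3.02, 6.02 and 3.55 CPM in heterozygous and 1.99, 1.996 and 2.63 CPM in homozygous E9.5 libraries, with an adjusted p of 0.116.

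No B class gene passed the threshold at E9.5, where all 8 had an edgeR adjusted p of 0.324 or more. Efnb1, the X-linked ephrin whose loss causes craniofacial defects, averaged 83.2 ± 3.19 and 80.5 ± 4.72 CPM, and Efnb2, the arterial ligand, 135 ± 5.20 and 140.1 ± 9.27 CPM. Efnb3, a midline ligand of the neural tube, averaged 70.5 ± 9.24 and 61.7 ± 1.94 CPM. Among their receptors, Ephb4, which marks veins, averaged 117 ± 12.1 and 122 ± 4.28 CPM, and Ephb3 47.8 ± 2.78 and 46.2 ± 2.67 CPM. Ephb1 averaged 15.3 ± 2.47 and 14.6 ± 0.471 CPM. Ephb2 measured 88.6, 85.7 and 84.7 CPM against 76.6, 81.3 and 81.1 CPM, groups that did not overlap, with an adjusted p of 0.466.

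Counted by overlap alone, 13 of the 51 tested genes (25.5%) had E9.5 groups that did not overlap, beside 20.9% of all genes tested; 3 against 3 libraries cannot give an exact permutation p below 0.1, two-sided. Homozygous values were the higher ones in Nrp1, Nrp2, Plxnd1, Efna1, Epha2, Sema3c, Sema3e, Sema6d and Sema7a, and the lower ones in Efna2, Epha3, Epha5 and Ephb2. Of the 48 genes not called, 38 had a 95% interval that lay inside a 1.5-fold band around equality, so a larger difference was outside the interval for most of the family. The widest interval was that of Epha10, from -1.93 to -0.41 on the log2 scale, at 0.732, 2.08 and 1.28 CPM in heterozygous and 0.438, 0.737 and 0.638 CPM in homozygous libraries. Nrp2, Efna2 and Epha3 stayed past the threshold under all 9 other settings and whichever of the 6 libraries was left out.

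**Figure D3:**
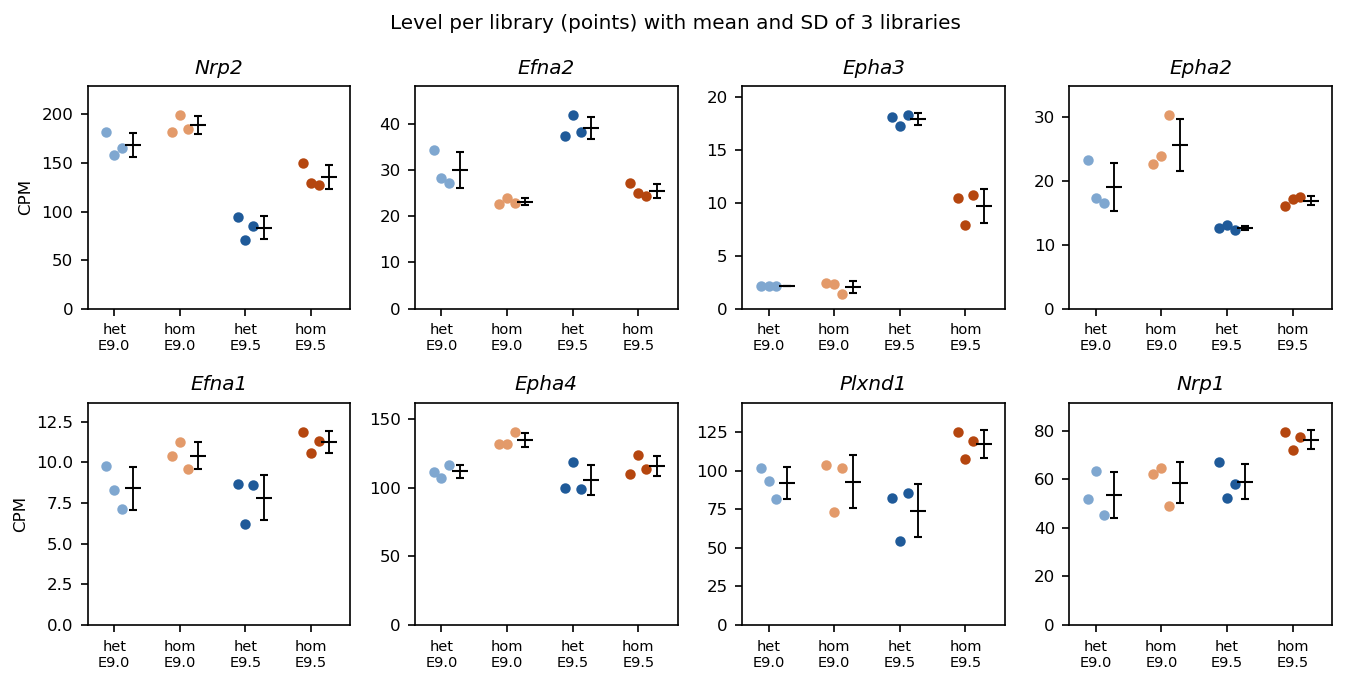
CPM of the 6 guidance genes called in a genotype comparison, and of Plxnd1 and Nrp1, 1 panel per gene with its own axis, 1 point per library, and the mean and SD of each group of 3 beside the points. Nrp2 separates at E9.5 (71.0 to 94.7 against 127 to 149.9 CPM), and Epha3 is near 2 CPM in both genotypes at E9.0.

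At the earlier stage, E9.0, 0 of the 51 genes were called by edgeR, beside 0.587% of all genes tested, and 7 had an unadjusted p under 0.05. Efna2 came nearest, at 34.4, 28.4 and 27.2 CPM in heterozygous and 22.6, 24.0 and 22.8 CPM in homozygous libraries. It lay in the same direction as at E9.5, with no overlap, at a log2 difference of -0.37 ± 0.09 (adjusted p = 0.10). Epha4 measured 112, 107 and 117 CPM against 132, 132 and 141 CPM, at a log2 difference of 0.27 ± 0.07 (adjusted p = 0.117). Epha2 measured 23.3, 17.3 and 16.5 CPM against 22.7, 23.9 and 30.3 CPM, groups that overlapped through heterozygous replicate 1 (0.44 ± 0.13; adjusted p = 0.141).

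Nrp2 and Epha3, called at the later stage, did not pass between genotypes at E9.0. Nrp2 measured 182, 158 and 165 CPM in heterozygous and 182, 199 and 185 CPM in homozygous libraries (0.17 ± 0.09, log2; edgeR adjusted p = 0.457). Epha3 was near the bottom of its range, at 2.13, 2.15 and 2.15 CPM against 2.41, 2.35 and 1.42 CPM (adjusted p = 0.937), so its E9.0 difference rests on few counts. Nrp1 averaged 53.5 ± 9.31 and 58.6 ± 8.30 CPM and Plxnd1 92.2 ± 10.4 and 92.8 ± 17.0 CPM, each with an adjusted p of 0.702 or more. With total counts in place of TMM the median of all genes at E9.0 shifted to 0.19, and the log2 differences were 0.38 for Nrp2 (adjusted p = 0.263), -0.15 for Efna2 (0.561), 0.46 for Epha4 (0.154) and 0.66 for Epha2 (0.0187, past the threshold).

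At this stage 5 of 51 genes (9.80%) had groups that did not overlap, beside 17.3% of all genes tested. They were Efna2, Efna5, Plxna4 and Plxnc1 with lower and Epha4 with higher homozygous values. Plxnc1, the receptor of Sema7a, measured 24.5, 24.7 and 23.4 CPM against 18.8, 19.4 and 19.99 CPM (edgeR adjusted p = 0.232). Plxna4 averaged 50.9 ± 3.61 and 40.3 ± 4.24 CPM (adjusted p = 0.243), and Efna5 79.6 ± 3.58 and 67.9 ± 4.40 CPM (adjusted p = 0.260). For the remaining class A plexins the E9.0 means were 189 ± 21.0 and 178 ± 24.6 CPM for Plxna1, 108 ± 10.3 and 106 ± 9.61 CPM for Plxna2, and 34.5 ± 3.89 and 30.2 ± 0.662 CPM for Plxna3. Their edgeR adjusted p were 0.741, 0.945 and 0.423. Of the 51 genes, 40 had a 95% interval inside the 1.5-fold band.

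Averaging the genotype difference over both stages, which uses all 12 libraries, gave 5 calls of 51 (9.80%), beside 2.96% of all genes tested (1.82% upward and 1.14% downward). Nrp2, Efna1, Epha2 and Epha4 were higher and Efna2 lower in homozygous libraries. The averaged log2 differences were 0.43 ± 0.07 for Nrp2 (edgeR adjusted p = 0.0019) and -0.49 ± 0.06 for Efna2 (adjusted p = 3.8e-04). For Epha2 it was 0.43 ± 0.09 (adjusted p = 0.0134), for Efna1 0.43 ± 0.10 (adjusted p = 0.0290) and for Epha4 0.20 ± 0.05 (adjusted p = 0.0428). Epha3, flat at E9.0, just missed at -0.47 ± 0.12 (adjusted p = 0.0515). Whichever of the 12 libraries was left out, Nrp2, Efna2 and Epha2 stayed past the threshold, whereas Efna1 did so in 6 of the 12 fits (adjusted p up to 0.0755) and Epha4 in 2 (up to 0.119). With total counts in place of TMM, Epha4 also lost its call (adjusted p = 0.149).

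Whether the genotype difference itself changed between stages was tested as an interaction, and 0 of 51 genes passed, beside 0.0675% of all genes tested; 6 had an unadjusted p under 0.05. Nrp2 had the lowest adjusted p, with a difference of differences of 0.53 ± 0.13 on the log2 scale (edgeR adjusted p = 0.212; DESeq2 alone called it, at 0.0365). Epha3 was at -0.83 ± 0.25 (adjusted p = 0.324) and Efna2 at -0.25 ± 0.13 (adjusted p = 0.607). With total counts the values were 0.31 for Nrp2 (adjusted p = 0.765) and -0.47 for Efna2. A difference between the stages in the genotype effect is thus not shown for any of the 3.

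More of these genes were called between stages than between genotypes. In heterozygous libraries 19 of 51 genes changed by edgeR, 8 upward and 11 downward, beside 35.2% of all genes tested (19.2% upward and 16.0% downward). In homozygous libraries 18 changed, 10 upward and 8 downward, beside 35.4% (19.6% and 15.8%). The members' shares of 37.3% and 35.3% are near those backgrounds. In both genotypes 13 genes were called, each in the same direction: Epha3, Epha5, Sema3c, Sema3d, Sema5b and Sema6c upward, and Nrp2, Sema4c, Sema4f, Ephb1, Epha2, Efna5 and Efnb2 downward. They are 68.4% of the heterozygous and 72.2% of the homozygous calls, near the 69.2% and 69.0% over all genes, of which 3602 of 3612 called in both went the same way. With total counts in place of TMM the median of all genes shifted by 0.38 in heterozygous and 0.18 in homozygous libraries, and the calls became 25 upward and 2 downward and 12 upward and 3 downward; the directions above are thus relative to the bulk of genes.

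Epha3 had the steepest rise of the family. It went from 2.14 ± 0.0112 to 17.9 ± 0.542 CPM in heterozygous libraries, an 8.36-fold rise (log2 3.06 ± 0.16; edgeR adjusted p = 3.5e-09). In homozygous libraries it went from 2.06 ± 0.554 to 9.69 ± 1.56 CPM, a 4.71-fold rise (2.23 ± 0.17; adjusted p = 1.3e-07). The lower homozygous level at E9.5 was thus reached from a like level at E9.0, and the interaction given above did not pass. Epha5 rose from 0.847 ± 0.180 to 4.20 ± 1.60 CPM in heterozygous libraries (2.28 ± 0.34; adjusted p = 1.1e-04). In homozygous ones it went from 1.11 ± 0.596 to 2.20 ± 0.365 CPM (0.99 ± 0.36; adjusted p = 0.0434), a call that was kept in 1 of 6 fits leaving out a library.

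The ligands that rose with stage included several semaphorins. Sema3c rose from 25.1 ± 2.95 to 40.4 ± 0.315 CPM in heterozygous (log2 0.68 ± 0.09; edgeR adjusted p = 1.9e-05) and from 26.2 ± 2.77 to 47.6 ± 1.21 CPM in homozygous libraries (0.86 ± 0.09; adjusted p = 1.8e-06). Sema6c, a transmembrane semaphorin, rose in both, by 0.58 ± 0.14 and 0.53 ± 0.14, or by 0.96 and 0.70 with total counts. Sema3d averaged 16.0 ± 1.44 and 23.6 ± 3.05 CPM in heterozygous libraries (adjusted p = 0.00761) and 17.0 ± 3.56 and 27.3 ± 4.38 CPM in homozygous ones (adjusted p = 0.00223). Epha8 rose in heterozygous libraries, by 0.64 ± 0.19 (adjusted p = 0.0150), and measured 0.17 in homozygous ones (adjusted p = 0.512). That heterozygous call was lost in 3 of 6 fits leaving out a library. With total counts the heterozygous rises of Sema3c and Epha8 were 1.04 and 1.02.

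With TMM, Nrp2 led the falls in heterozygous libraries by a small margin over Sema4f. It went from 169 ± 12.4 to 83.5 ± 11.9 CPM, which is 0.495 of the earlier level (log2 -1.01 ± 0.09, edgeR adjusted p = 1.4e-06). In homozygous libraries it went from 189 ± 9.29 to 136 ± 12.6 CPM, or 0.717 of the earlier level (-0.48 ± 0.09; adjusted p = 9.6e-04). The interaction given above did not pass, so these falls are not shown to differ. With total counts the homozygous fall was -0.31 with an adjusted p of 0.133. Sema4f fell by 0.99 ± 0.24 and by 1.44 ± 0.25 in the 2 genotypes, from a mean of 3.36 to 1.71 CPM and from 4.50 to 1.66 CPM; the heterozygous call was lost without E9.0 replicate 3 (-0.70; adjusted p = 0.0526). Ephb1, which sorts cells and axons by contact with ephrin-B ligands, fell by 0.65 ± 0.10 and 0.67 ± 0.11, and Epha2 by 0.58 ± 0.13 and 0.60 ± 0.12. Sema3g fell in heterozygous libraries, by 0.68 ± 0.19 (adjusted p = 0.0102), and measured -0.18 in homozygous ones (adjusted p = 0.509); the heterozygous call was lost without E9.0 replicate 2 (-0.51; adjusted p = 0.0733). With total counts, the heterozygous falls of Ephb1 (-0.27; adjusted p = 0.133), Epha2 (-0.18; 0.275) and Sema3g (-0.32; 0.212) kept their direction and lost their calls. Those of Nrp2 and Sema4f were -0.63 and -0.64 and stayed past the threshold.

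**Figure D4:**
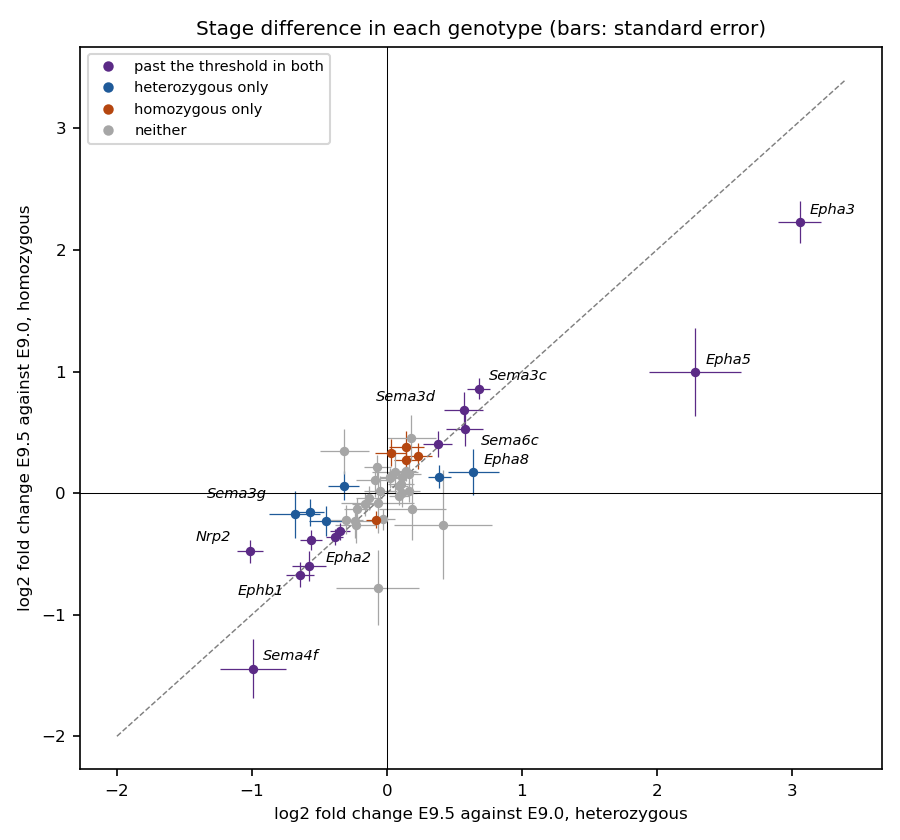
Log2 fold change from E9.0 to E9.5 in heterozygous libraries (horizontal) against the same in homozygous libraries (vertical) for the 51 tested guidance genes, with standard errors as bars and the dashed line marking equal change. The 13 genes called in both genotypes all lie in the same direction, with Epha3 at 3.06 and 2.23 and Nrp2 at -1.01 and -0.48.

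Genes that act beside these receptors were counted from lists of known partners. Of 26 partners and effectors of plexins and neuropilins, 0 rose and 2 fell at E9.0, while 2 rose and 3 fell at E9.5, beside 0.587% and 1.89% of all genes called at these stages; the medians were -0.05 and 0.04 on the log2 scale beside 0.00 over all genes at each stage. L1cam, the adhesion molecule that associates with Nrp1 on axons, fell at both stages, from 5.76 to 7.19 CPM in heterozygous to 3.11 to 3.49 CPM in homozygous E9.0 libraries (-0.95 ± 0.15; adjusted p = 0.00551 by edgeR) and from 4.91 to 5.90 to 2.73 to 3.26 CPM at E9.5 (-0.88 ± 0.14; adjusted p = 0.00332). Of the collapsin response mediators, which carry the semaphorin signal to the cytoskeleton, Dpysl4 fell at both stages (-0.44 ± 0.09 and -0.39 ± 0.08; adjusted p = 0.0348 and 0.0194) and Crmp1 at E9.5 (-0.32 ± 0.06; adjusted p = 0.0120). Beside these falls, 12 markers of early neurons and ganglia summed to 135 to 142 against 138 to 142 CPM at E9.0, with 0 called. At E9.5 they summed to 245 to 286 against 214 to 227 CPM, with 1 higher and 3 lower. Their part in these falls was not tested. The 2 partners that rose at E9.5 were the VEGF receptors Kdr and Flt1, which bind the ligand that Nrp1 and Nrp2 also hold and which mark endothelium. Of 25 effectors of Eph receptors and ephrins, 0 were called by edgeR at either stage, with medians of -0.03 at both.

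Markers of several cell types moved with genotype at E9.5, and their part in the results above was not tested. Of all genes tested, 0.587% were called between genotypes at E9.0 and 1.89% at E9.5. The summed CPM of 12 endothelial markers was 193 to 274 in heterozygous and 347 to 390 in homozygous libraries, with 8 of 12 called higher. The vascular receptor Plxnd1 and Nrp1 and Nrp2 were higher in the same libraries, though only Nrp2 was called. Ephb4, which marks veins, and Efnb2, the arterial ligand, had log2 differences of only 0.07 and 0.05 (edgeR adjusted p = 0.806 and 0.842). Heterozygous replicate 2 was lowest in the endothelial sum and in Plxnd1, Nrp1 and Nrp2. At E9.0, where neither Nrp2 nor Plxnd1 passed, the endothelial sum was 299 to 322 against 355 to 365, with 0 of 12 called. Markers of migrating crest summed to 695 to 741 against 511 to 635 CPM at E9.5, with 6 of 12 lower, and those of facial mesenchyme to 214 to 322 against 177 to 192 CPM, with 7 of 14 lower. Both sums were lower in homozygous libraries, as were Efna2 and Epha3, while Nrp2 was higher. At E9.0 the crest sum was 899 to 990 against 862 to 936 CPM, with 1 of 12 lower (Tfap2b). The facial mesenchyme sum was then 163 to 181 against 162 to 172 CPM, with 0 of 14 called. Without heterozygous E9.5 replicate 2 the Nrp2 difference was 0.60 (adjusted p = 0.00172).

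Epha2 and Efna1 were higher at E9.5 without a call. Of 8 markers of surface and pharyngeal epithelium, Epcam and Pax9 were called higher at that stage, and the sum was 281 to 325 against 338 to 415 CPM. At E9.0 it was 305 to 363 against 384 to 405 CPM, with 0 of 8 called. Heterozygous replicate 1 was highest of its group in that sum, in Epha2 and in Efna1. This is not particular to epithelium. That library, with 37.4% Rn45s, was also highest of its group in the endothelial, crest, boundary and rhombomere sums (322, 990, 194 and 86.2 CPM). It was lowest of its group in the neuron and progenitor sums (135 and 685 CPM). Markers of the boundary of midbrain and hindbrain summed to 105 to 184 against 59.8 to 69.3 CPM at E9.5, with 5 of 10 lower, and heterozygous replicate 2, which was highest in that sum, was also highest of its group in Efna2, Epha5 and Epha10 and lowest in Epha3 (17.3 CPM). That library was highest of its group as well in the neuron and progenitor sums (286 and 885 CPM) and lowest in the facial mesenchyme sum (214 CPM). At E9.0, where Efna2 was lower in homozygous libraries without a call, the boundary sum was 160 to 194 against 117 to 136 CPM, with 0 of 10 called. Rhombomere markers, beside Epha4, gave 0 calls of 7 at either stage; their sums were 69.0 to 86.2 against 84.7 to 98.1 CPM at E9.0 and 57.6 to 71.9 against 55.4 to 77.9 CPM at E9.5. Of 12 markers of early neurons and ganglia, 1 was higher and 3 lower at E9.5 (245 to 286 against 214 to 227 CPM), and of 8 of neural progenitors 1 was lower (709.7 to 885 against 745 to 808 CPM). Erythroid and heart muscle markers gave 0 calls between genotypes at either stage but were several times higher at E9.5 than at E9.0, the heart muscle sum going from 59.4 to 321 to 1872 to 2986 CPM over both genotypes. Between stages, beside the rises of Epha3 and Epha5, 10 of 12 neuron and ganglion markers rose and 1 fell in heterozygous libraries, and 8 rose in homozygous ones. Of 14 facial mesenchyme markers 8 rose in heterozygous libraries, and 2 rose and 3 fell in homozygous ones. All 6 heart muscle and all 7 tested erythroid markers rose in both genotypes. Their median log2 changes in heterozygous libraries were 3.93 and 1.95, against 1.25 for neuron and ganglion markers. Beside the fall of Nrp2, 8 of 12 migrating crest markers fell in each genotype, and endothelial markers gave 6 of 12 lower in heterozygous libraries but 2 higher and 1 lower in homozygous ones. Boundary markers gave 5 of 10 lower and 1 higher in heterozygous and 9 lower in homozygous libraries. Of all genes tested, 35.2% were called between stages in heterozygous and 35.4% in homozygous libraries. The homozygous facial mesenchyme and endothelial counts are near or below that share. The part of these markers in the stage changes was not tested. No listed marker of any of these cell types was at 0 in all libraries.

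**Figure D5:**
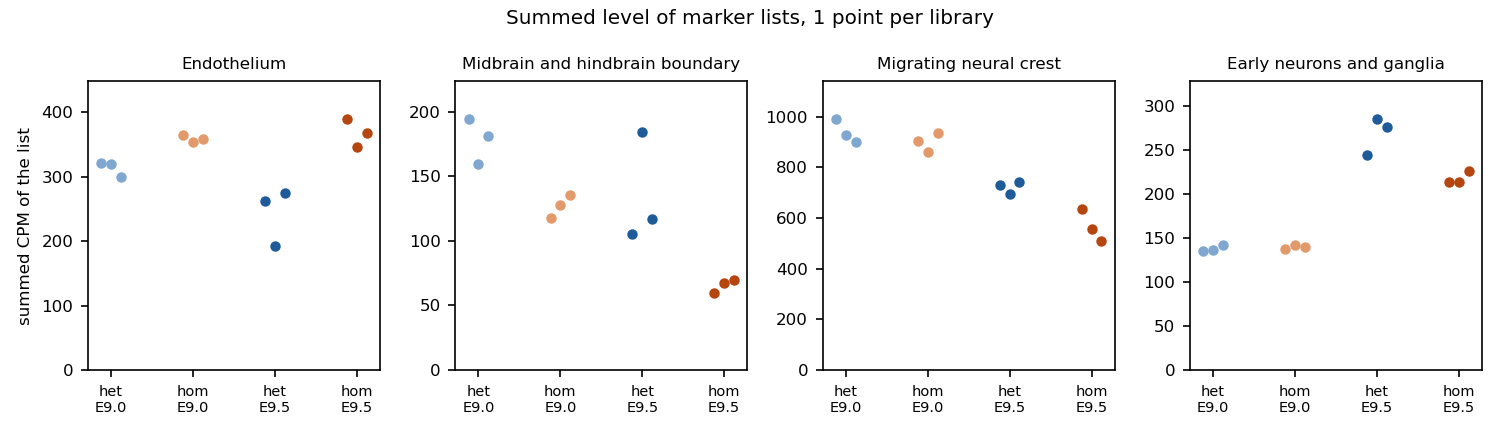
Summed CPM of 4 marker lists in every library, 1 point per library, grouped by genotype and stage. At E9.5 the endothelial sum is 347 to 390 in homozygous against 193 to 274 CPM in heterozygous libraries, and the migrating crest sum 511 to 635 against 695 to 741 CPM.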

How the data were processed

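The authors deposited 1 table of raw counts per gene symbol for 12 libraries, not normalized; per the submitters' processing notes cutadapt, STAR, featureCounts and build mm10 were used, with versions, annotation and strand setting not given in the sources used here. Counts were filtered with filterByExpr, scaled by TMM and tested in edgeR 4.0.16 (R 4.3.3) with a robust quasi-likelihood fit of 4 group means; limma 3.58.1 and DESeq2 1.42.0 were alternatives, beside other scalings, filters, sample sets, a replicate block and leaving out each library. The fit was tested on simulated counts. Exon lengths came from GENCODE M21, which holds all 53 genes, and promoters from RefSeq, which matched 47 of 53. In GENCODE 14 of the 53 share exonic bases with another gene, so their counts are less certain: Efna3, Efna4, Epha1, Epha6, Epha10, Ephb1, Ephb4, Nrp1, Plxna1, Plxna4, Plxnb1, Plxnc1, Sema4a and Sema4c. Libraries of 1 group all differed beyond sampling noise, so each was counted as 1 replicate.

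The members and lists were chosen with earlier results of these data known. Named genes were those called in a genotype contrast, the 5 largest called rises and falls with stage in heterozygous libraries, and 25 with established roles in crest, hindbrain or vessel guidance; Epha5, Epha10, Efna1, Plxnc1, Sema6d and other genes with groups apart were described after their values were seen. For genes of the third kind that were not called, levels are mostly given with an adjusted p or a bound shared by several genes. Many of them are given at E9.5 only. Fold changes are drawn in the plot of genotype differences.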

Additional observations from a re-analysis of the deposited data

How the results depend on the processing

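Of the 6 counts of called genes, the E9.0 genotype count of 0 became 1 with total counts (Epha2), with DESeq2 (Efna2) and with no filter (Efna2), and was 0 to 1 with a library left out (1, Epha2, without heterozygous E9.0 replicate 1). The E9.5 count of 3 became 5 with DESeq2 (adding Efna1 and Plxnd1), 5 with no filter (Efna1 and Epha2) and 5 with only the groups compared (Epha2 and Sema3c), 4 with limma-voom (Efna1) and 4 with total counts (Plxnd1), and was 3 to 4 with a library left out. With the replicate number as a replicate block it was 6 (adding Efna1, Nrp1 and Plxnd1), and the other counts with the block were 0 at E9.0, 7 averaged, 0 for the interaction, 19 and 18 for stage. The labels do not say that the numbers pair the libraries. Deviations of same-numbered libraries correlated at -0.17 to 0.11, and some but not all libraries correlated best with their own number. Such correlations cannot exclude a shared litter or preparation. The averaged count of 5 was 5 to 7 under other settings and 3 to 6 with a library left out; it was 3, with Epha4 and Efna1 lost, without heterozygous E9.0 replicate 2 or 3, homozygous E9.0 replicate 1 or 2, or homozygous E9.5 replicate 3. The interaction count of 0 became 1 with DESeq2 (Nrp2). The stage counts were 18 to 27 in heterozygous (16 to 20 with a library left out) and 15 to 19 in homozygous libraries (12 to 18; 12 without homozygous E9.5 replicate 3). The cause of these moves was not tested. Epha3 at E9.0 changed sign, to 0.14 with total counts (adjusted p = 0.764) and 0.15 without homozygous E9.0 replicate 3 (adjusted p = 0.865); with a library left out it ranged from -0.18 to 0.15. Among values of single genes, 638 kept direction and side of the threshold, 18 newly passed it, 32 no longer did and 2 changed sign. With only the groups compared, the averaged and interaction counts could not be fitted, as both use all groups. Depth limits Epha3 at E9.0, Epha5, Epha10 and Sema4f, all at a few CPM, and the untested Epha6 and Plxnb3.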

Other observations

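Of 27 tested netrin, Slit, Robo, repulsive guidance, chemokine and related genes, 0 were called at E9.0 by edgeR, beside 0.587% of all genes, and 2 rose and 2 fell at E9.5, beside 1.89%, with a median log2 difference of -0.01. Unc5b, a netrin receptor of vessels, rose from 62.7 to 78.6 CPM in heterozygous to 89.7 to 103 CPM in homozygous libraries (0.44 ± 0.09; edgeR adjusted p = 0.0148). Cxcl12, the chemokine that attracts cells bearing Cxcr4, rose from 59.9 to 88.7 to 113 to 130.0 CPM (0.65 ± 0.12; adjusted p = 0.0168). Dcc, the netrin receptor of commissural axons, fell by 0.72 ± 0.15 (adjusted p = 0.0210), and Draxin, a secreted ligand of Dcc, by 0.89 ± 0.14 (adjusted p = 0.00386). Flrt1 was not called at E9.5 and was called lower in the average over stages, at -1.003 ± 0.18 (adjusted p = 0.00973). The endothelial markers, given above, were higher in the same E9.5 libraries as Unc5b and Cxcl12. Beside the falls of Dcc and Draxin, the neuron and ganglion sum was 245 to 286 against 214 to 227 CPM and the boundary sum 105 to 184 against 59.8 to 69.3 CPM. The part of these markers was not tested. Of 7 genes listed as trunk markers 2 were tested, with 0 calls at E9.0 and 1 lower gene, Pax7, at E9.5. The summed CPM of the list at E9.5 was 27.0 to 30.9 in heterozygous and 16.8 to 41.6 in homozygous libraries. These groups overlapped, so the Pax7 call does not show a difference in trunk tissue.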
